A study of Mus musculus with 6 samples.

Results

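Dendritic cells take up antigen in tissues and present it to T cells. Their conventional lineages mature from precursors that respond to Flt3 ligand through the receptor Flt3. The transcription factors Batf3 and Irf8 are needed for the cross-presenting type 1 cells (cDC1), Irf4 acts in type 2 cells (cDC2), and Zbtb46 marks both. In tumours, cDC1 are known for carrying tumour antigen to CD8 T cells.

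The genes described here are 10 genes of the dendritic cell lineages: Batf3, Flt3, Zbtb46, Irf8, Irf4, Fscn1, Cd209a, Siglech, Ly75 and Itgae. They were chosen by name, and all probe sets were used whose platform annotation gives one of these symbols as the only gene. This gave 19 of the 45101 probe sets on the array, and 10 of the 18194 genes with such a probe set. RNA came from the cancer stromata of male B6 mice carrying a subcutaneous tumour for 4 weeks, 3 wild-type (WT) and 3 Pdia4-/- (KO), with 1 Affymetrix Mouse430_2 array per sample. Pdia4 is an enzyme that forms disulphide bonds in newly made proteins. The growth protocol names the Lewis lung carcinoma line LLC but GK1 is the tumour named in the series design, and how the knockout was made, how stroma was separated and which genotype the tumour cells carried are not stated in the labels.

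The comparison was made to find stromal genes that depend on Pdia4. Values are linear signals that the array software had scaled to the same target on each array, each with a call of whether the transcript was detected (Present) or not (Absent). For Pdia4 itself the mean signal in WT was 3604 ± 730 and that in KO 1749 ± 502 (SD, n = 3; limma adjusted p = 0.161), with each KO array below each WT array. The arrays each detected 21202 to 22185 probe sets. KO replicate 3 carries another run name in its file header than the other 5 arrays and stood apart on the first principal component (score 105, against 11.8 on KO replicate 1 and -51.0 to -37.1 in WT), so results are also given without it. The 3' to 5' ratio of the β-actin control, a sign of RNA integrity, was 1.66 to 4.26 in WT and 1.51 to 1.99 in KO.

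The label was checked against the array calls. A list of 6 broad markers, with Itgax (CD11c), the MHC class II genes H2-Ab1 and H2-Eb1 and the pan-leukocyte gene Ptprc among them, was Present throughout, each gene on 6 of 6 arrays. Some narrower markers were not. Xcr1, the chemokine receptor that defines cDC1, was Present on 0 of the 6 arrays, and Cd207 (langerin) likewise. Clec9a had no probe set with that symbol alone. Of the 10 lineage genes, 8 had a probe set Present on at least 3 arrays, the minimum for testing. Zbtb46 and Cd209a had none. Batf3, Irf8, Fscn1 and Itgae each had a probe set Present on all 6 arrays. Xcr1, Cd207, Zbtb46 and Cd209a therefore lay near the detection limit of bulk stroma RNA, but not all of the 10 genes did. The genes are described by name and not as a count of cells. In bulk RNA, fewer cells of a type and less RNA per cell cannot be told apart.

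**Figure D1:**
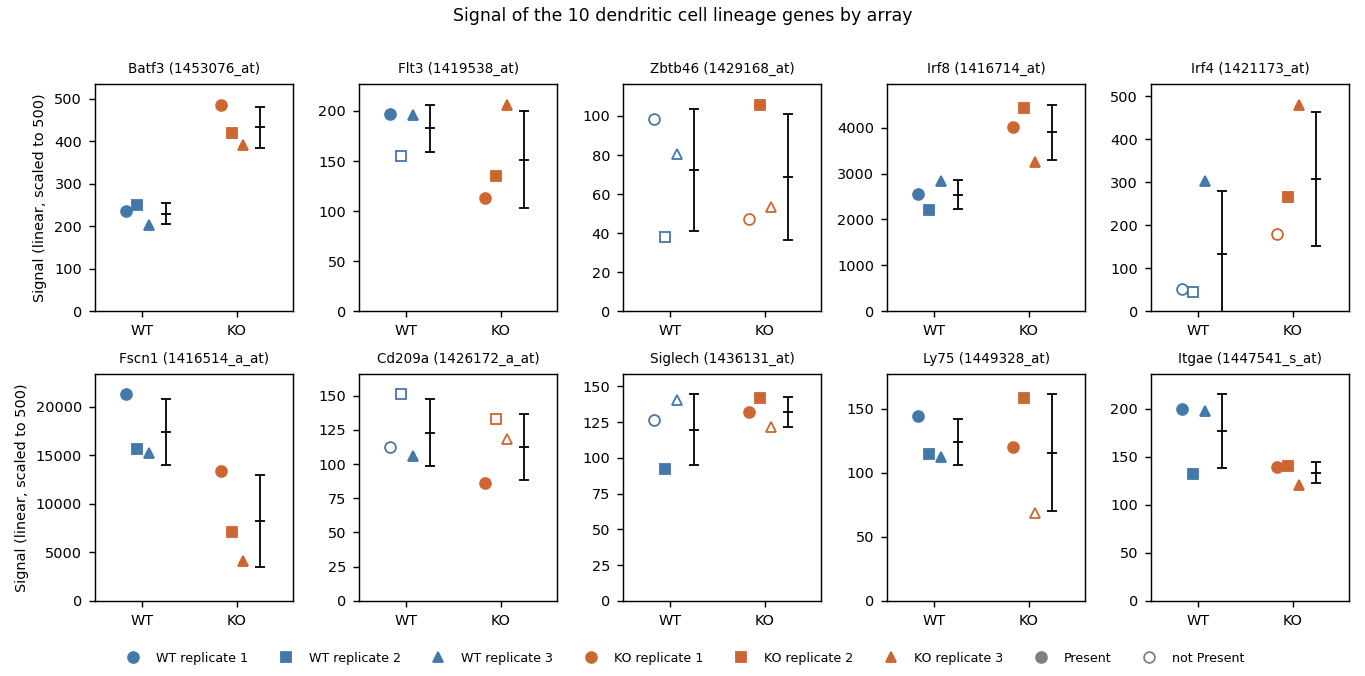
Signal of the brightest usable probe set of each gene (linear scale, from 0) on the 3 WT and 3 KO arrays. Symbols mark replicates, filled where the call was Present and open where it was not, and bars show the mean ± SD, cut at 0 for Irf4 in WT. Batf3 and Irf8 lie higher and Fscn1 lower on each KO array than on any WT array, while the groups overlap for the other 7 genes.

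The upstream sequences of the 4 genes with the largest differences follow, since Batf3, Irf8 and Irf4 encode the factors that direct these lineages and their promoters are where regulators of the genes would act. Each is the 250 bases before the annotated start, on the + strand of GRCm38.p6, from RefSeq. All letters are in lower case because neither motif searched for matched in these 4 windows. Irf8 has 2 annotated starts, and the upstream one is shown.
Batf3, chr1:191098164-191098413: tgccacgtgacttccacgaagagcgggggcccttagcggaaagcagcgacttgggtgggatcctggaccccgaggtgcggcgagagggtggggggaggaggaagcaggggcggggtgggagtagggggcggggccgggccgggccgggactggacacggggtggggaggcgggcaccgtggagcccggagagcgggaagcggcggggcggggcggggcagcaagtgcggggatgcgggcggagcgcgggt
Irf8, chr8:120736108-120736357: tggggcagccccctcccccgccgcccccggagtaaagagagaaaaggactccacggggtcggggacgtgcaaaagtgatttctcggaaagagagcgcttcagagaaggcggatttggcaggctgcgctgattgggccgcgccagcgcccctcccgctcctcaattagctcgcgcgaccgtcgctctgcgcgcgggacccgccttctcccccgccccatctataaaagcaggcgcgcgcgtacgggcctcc
Irf4, chr13:30748983-30749232: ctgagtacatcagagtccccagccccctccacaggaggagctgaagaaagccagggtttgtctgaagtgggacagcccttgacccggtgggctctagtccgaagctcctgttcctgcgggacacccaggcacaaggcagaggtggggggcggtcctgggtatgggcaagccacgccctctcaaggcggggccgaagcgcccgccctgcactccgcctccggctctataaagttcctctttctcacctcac
Fscn1, chr5:142960105-142960354: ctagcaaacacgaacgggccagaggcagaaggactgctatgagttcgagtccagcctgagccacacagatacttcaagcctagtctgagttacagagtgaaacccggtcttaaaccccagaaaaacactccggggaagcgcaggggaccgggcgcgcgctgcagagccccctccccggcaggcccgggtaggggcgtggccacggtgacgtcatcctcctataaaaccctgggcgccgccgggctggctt

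Windows were found for 9 of the 10 genes, 10 windows in all. The share of G and C in the windows shown was 76.0% for Batf3, 67.2% for Irf8, 63.6% for Irf4 and 62.4% for Fscn1. The core of the interferon-stimulated response element (GAAA, any 2 bases, GAAA) was searched on both strands and matched in 0 of the 10 windows (2.98% of all 32851 windows of this length). The AP-1 site TGANTCA, which reads the same on both strands in this form, matched once, as TGACTCA in Zbtb46, 61 bases before its start (6.75% of all windows). A match describes letters in a window and not a bound site.

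None of the 11 tested probe sets passed limma's adjusted threshold of 0.05 over all 22063 tested probe sets. That threshold was passed by 0.0272% of the probe sets tested. At an unadjusted p under 0.05 there were 4 of the 11, with 2 higher and 2 lower in KO, while 20.2% of all tested probe sets reached it (9.99% higher and 10.2% lower). The groups did not overlap in the same 4 of 11, against 30.6% overall (13.5% higher and 17.1% lower). Without KO replicate 3, 5 of 11 reached that p, against 15.3% of all. These shares rest on 11 probe sets. With 1 probe set per gene, 4 of the 8 tested genes were higher and 4 lower in KO, with a median log2 difference of -0.01 against -0.10 over 11357 genes. Without KO replicate 3 they were 5 higher and 3 lower with a median of 0.19. Their differences ran from -1.24 to 1.67, so both signs occurred within the group.

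Batf3, the basic leucine zipper factor required for cDC1, read 236.2, 251.4 and 202.7 on WT replicates 1 to 3 and 486.2, 420.8 and 391.6 on KO replicates 1 to 3. It was Present on all 6 arrays, and its lowest KO array lay well above its highest WT array. The mean signal was 230.1 ± 24.9 in WT and 433 ± 48.4 in KO (SD, n = 3), a ratio of 1.88. The log2 difference was 0.91 (SE 0.20, 95% interval 0.44 to 1.38), with limma's adjusted p at 0.146 and an exact permutation p of 0.1, the smallest that 3 arrays against 3 allow. Leaving out any one array moved the difference between 0.82 and 0.98, and it was 0.98 without KO replicate 3.

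Irf8, the interferon regulatory factor that cDC1, plasmacytoid cells and monocytes depend on, was measured by 2 probe sets that differed. The brighter read 2557, 2213 and 2838 in WT and 4005, 4434 and 3246 in KO, with no overlap. Its log2 difference was 0.61 (SE 0.22; 95% interval 0.11 to 1.12; limma adjusted p = 0.202), and 0.74 without KO replicate 3. The other read 915.5, 853.9 and 983.6 in WT and 1220, 765.4 and 803.0 in KO, where only KO replicate 1 lay above the WT arrays. Its difference was -0.01 (95% interval -0.58 to 0.55; limma adjusted p = 0.981). Both sets were Present on every array, so the size of any Irf8 difference depends on the probe set. Irf8 is also made by macrophages and B cells. The macrophage list beside it had 8 of its 9 tested genes higher in KO, 0 of them past the adjusted threshold, and a summed signal of 99804 to 131864 in WT and 137141 to 213702 in KO. The part of macrophages in the Irf8 signal was not tested.

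Irf4, the factor of cDC2, activated T cells and plasma cells, had the widest spread. Its brighter probe set read 51.1, 45.6 and 302.8 in WT and 178.6, 265.2 and 479.8 in KO. WT replicate 3 lay above 2 of the 3 KO arrays, and the call was Present on that array and on KO replicates 2 and 3 only. The log2 difference of 1.67 carried an SE of 0.74 (95% interval -0.05 to 3.39; limma adjusted p = 0.256). It ranged from 1.19 to 2.55 when single arrays were left out and was 2.55 without WT replicate 3. The other Irf4 probe set was Present on 0 arrays. B cell markers were uneven across the same arrays, since WT replicate 3 had a summed signal over 5 of them of 7995 and KO replicate 2 one of 2627, where the remaining 4 arrays had 301.8 to 562.4. The plasma cell sum overlapped between the groups (17992 to 27732 in WT and 21022 to 27552 in KO), but Xbp1 made up most of it (13465 to 21557). Among its other genes, Jchain stood at 8451 for WT replicate 3, at 4044 for KO replicate 2 and at 47.0 to 158.7 elsewhere. Mzb1 had the same pattern (2464, 1338 and 119.5 to 208.4). Sdc1 and Prdm1 did not, and both were lowest in WT replicate 3 (1362 and 217.2). In KO replicate 3, where Irf4 was highest, Jchain was 84.1 and Mzb1 156.2. How far B or plasma cells contribute to the Irf4 signal was not tested.

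Flt3, the receptor tyrosine kinase of dendritic cell precursors, read 196.8, 155.3 and 195.5 in WT and 113.1, 135.5 and 206.0 in KO. KO replicates 1 and 2 lay below the WT arrays, and KO replicate 3 lay above them. The log2 difference was -0.31 (SE 0.27, 95% interval -0.94 to 0.33, limma adjusted p = 0.522), and -0.55 without KO replicate 3. Flt3 was Present on 5 of 6 arrays.

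Zbtb46, a zinc finger factor that conventional dendritic cells share, was covered by 4 probe sets. None was Present on more than 1 array, and the brightest read 98.5, 37.8 and 80.5 in WT and 47.2, 105.7 and 53.6 in KO. The values interleave, and no difference was detectable at this level of signal.

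Fscn1 encodes fascin, an actin-bundling protein of mature dendritic cells that carcinoma and mesenchymal cells also make. Its brightest probe set read 21293, 15643 and 15274 in WT and 13390, 7096 and 4103 in KO, so no KO array reached the lowest WT array and KO replicate 3 was the lowest. KO held 47.1% of the WT mean signal. The log2 difference was -1.24 (SE 0.42, 95% interval -2.21 to -0.26, limma adjusted p = 0.194), but -0.82 without KO replicate 3.

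The other tested Fscn1 probe sets had the same sign. A dim set read 76.1, 91.1 and 81.3 in WT and 38.7, 48.2 and 47.7 in KO, with a wider gap between the groups for its spread than the brightest set (log2 difference -0.89, SE 0.20, limma adjusted p = 0.147). It was Present on 3 WT arrays and 1 KO array. A set at intermediate signal read 980.8, 1860 and 915.4 in WT and 851.7, 985.4 and 703.9 in KO, where the groups overlapped (log2 difference -0.50, 95% interval -1.24 to 0.24). The last set was Present on 0 arrays.

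Keratins moved with Fscn1 across arrays. Krt8, a keratin of simple epithelia and carcinomas, read 7601, 6475 and 5591 in WT and 3307, 2451 and 850.0 in KO, in the same order from array to array as the brightest Fscn1 set. Krt18, its partner, had a log2 difference of -1.95 (limma adjusted p = 0.148). Of the 5 genes of the epithelial list 3 were tested, with Krt8 and Krt18 lower and Cdh1 (E-cadherin) higher by 0.33, while Krt19 and Epcam were Present on 0 arrays. The summed signal of the list was 11598 to 15456 in WT and 2426 to 6628 in KO. The part of tumour cells in the Fscn1 signal was not tested.

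**Figure D2:**
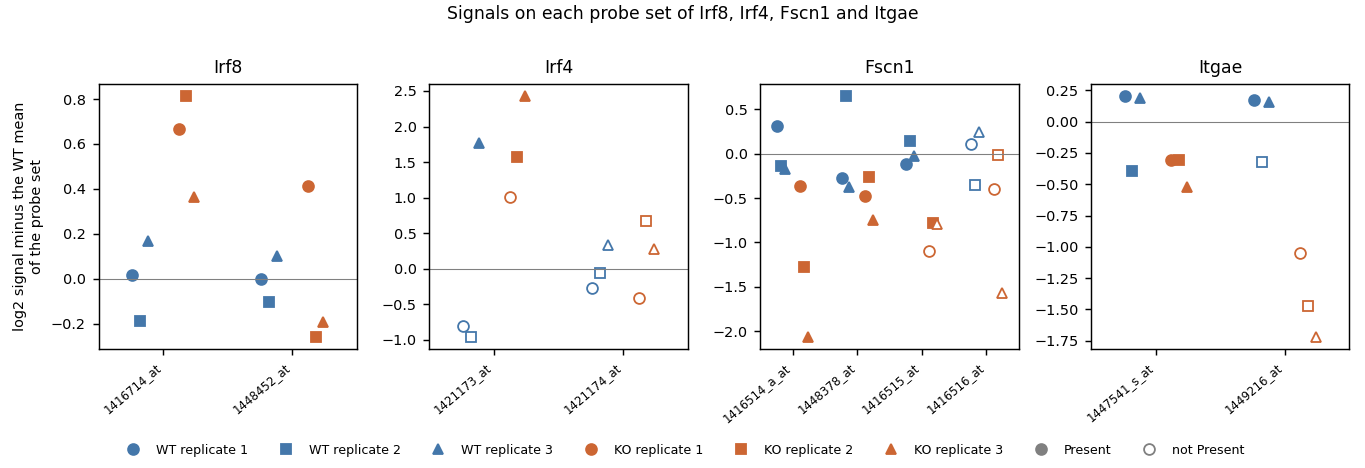
log2 signal of each probe set of Irf8, Irf4, Fscn1 and Itgae, relative to that probe set's own WT mean, on every array. Filled symbols were Present. The sets of Irf8 part, with the brighter one higher on each KO array and the other not, while in Fscn1 the brightest set and a dim one both lie lower on each KO array.

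Itgae encodes the CD103 integrin chain, carried by cDC1 of tissues and by resident CD8 and regulatory T cells. Its tested probe set, of the kind whose probes may be shared between transcripts, read 199.6, 131.8 and 197.3 in WT and 139.7, 139.9 and 120.5 in KO, with WT replicate 2 among the KO values. The log2 difference was -0.38 (SE 0.24, 95% interval -0.93 to 0.17, limma adjusted p = 0.374). The other set read 122.9, 87.3 and 121.6 in WT and 52.8, 39.4 and 33.1 in KO, without overlap. It was Present on 2 WT arrays and on 0 KO arrays, too few for the test, and WT exceeded KO by at least 2.67-fold (ratio taken on mean log2 signal) (exact permutation p = 0.1, the smallest possible).

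Most genes that accompany CD103 had the opposite sign. Itgb7, the β7 chain that pairs with CD103, went from a WT mean of 2267 ± 259 to a KO mean of 2927 ± 178 (SD, n = 3; limma adjusted p = 0.311). Cd8b1 and Cd8a, the CD8 chains, had log2 differences of 2.58 and 2.31 (limma adjusted p = 0.130 and 0.135). Cd69, a retention marker of resident T cells, had 1.29, and 0.68 without KO replicate 3. The summed signal of 5 T cell genes was 1628 to 3670 in WT and 4504 to 5901 in KO. Of the 6 tested genes of the CD103 list 5 were higher and 1, the regulatory T cell factor Foxp3, was lower (-0.53), with 0 past the adjusted threshold. The Foxp3 groups overlapped, at 34.0 to 50.8 in WT and 21.2 to 48.6 in KO. These signals lay near the median of Absent probe sets, 19.3 to 30.9 on the arrays.

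Ly75, the endocytic receptor DEC-205, read 144.6, 114.5 and 112.7 in WT and 120.3, 158.8 and 68.3 in KO. KO replicate 3 was the lowest and KO replicate 2 the highest of all 6 arrays. The log2 difference of -0.17 (95% interval -0.94 to 0.59, limma adjusted p = 0.779) became 0.17 without KO replicate 3. Cd209a, a C-type lectin of cDC2 and monocyte-derived dendritic cells, read 112.6, 150.8 and 105.5 in WT and 86.2, 132.9 and 118.0 in KO. It was Present on 1 array of each group, and of its 6 paralogs 5 were Present on 0 arrays.

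Siglech, a sialic acid-binding receptor of plasmacytoid cells, read 126.2, 92.5 and 140.4 in WT and 132.1, 142.1 and 121.4 in KO. The groups overlapped, with a log2 difference of 0.16 (95% interval -0.37 to 0.69, limma adjusted p = 0.700), and it was Present on 3 of 6 arrays. For Flt3, Ly75 and Siglech the intervals reach from a fall to a rise, so they do not show equal levels.

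**Figure D3:**
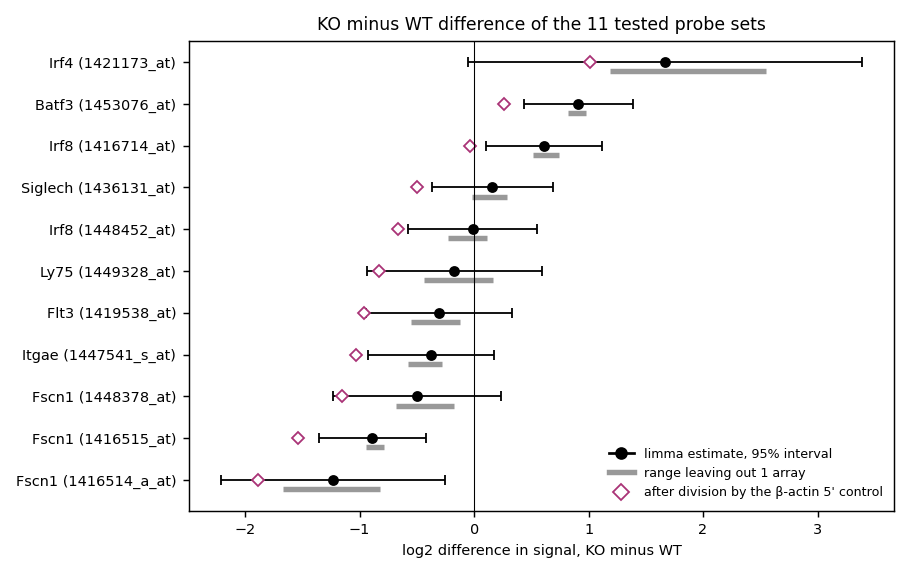
log2 difference in signal, KO minus WT, of the 11 tested probe sets with limma's 95% interval, the range when 1 array is left out (grey bars) and the estimate once signals are divided by the 5' control of β-actin (diamonds). The intervals of Batf3 and of the brighter Irf8 set lie above 0 and those of 2 Fscn1 sets below it. The division shifts every set downward and places that Irf8 set at -0.04.

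The scaling of the arrays mattered for these readings. In the authors' deposited table, all 1554 folds equalled the WT over KO ratio of mean signals with each mean divided by that of the 5' control of β-actin, within 0.0006. That control was 1.53 times as high in KO as in WT, so the division lowers every KO signal against WT by 0.62 on the log2 scale, and a positive fold there stands for a lower level in KO. The authors' deposited table lists 1 of the 19 probe sets, the brightest of Fscn1, with a fold of 3.259, where the ratio of the deposited signals is 2.12. The same division applied per array moved the median of all tested probe sets by -0.65. It left log2 differences of 0.26 for Batf3, -0.04 for the brighter Irf8 set and 1.01 for Irf4. As that division moves every probe set by the same amount, it cannot change where these lie against the median of all tested probe sets. Fscn1 reached -1.89 with a limma adjusted p of 0.0183, the only setting of all those run in which a lineage gene passed the threshold. Under that division limma called 1135 of all 22063 tested probe sets, 1053 of them lower in KO.

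Members were also set against Ptprc, the CD45 antigen of all leukocytes, on the same array. The log2 signal of Ptprc differed by 0.40 (SE 0.24), with overlapping groups (limma adjusted p = 0.361). Relative to it, Fscn1 was lower in KO by a log2 difference of -1.64, Itgae of -0.78 and Flt3 of -0.71, each without overlap between groups. Each of these 3 had an exact permutation p of 0.1, which became 0.267 after adjustment over the 8 ratios. The higher Ptprc signal in KO lowers every such difference by 0.40. How many of all tested probe sets separate when set against Ptprc was not counted. In their own signals, 17.1% lay lower in KO without overlap. Flt3, whose own signals overlapped, separated in this ratio, with log2 values of -6.96, -6.76 and -6.96 in WT and -8.04, -7.47 and -7.30 in KO.

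Batf3 relative to Ptprc had a difference of 0.51, and the groups overlapped (exact permutation p = 0.2). WT replicate 2, which had the lowest Ptprc signal, then lay above KO replicate 3. The ratios of Irf8 and Irf4 differed by 0.21 and 1.27, and those of Siglech and Ly75 by -0.24 and -0.57, all with overlapping groups (exact permutation p = 0.3 to 0.6).

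**Figure D4:**
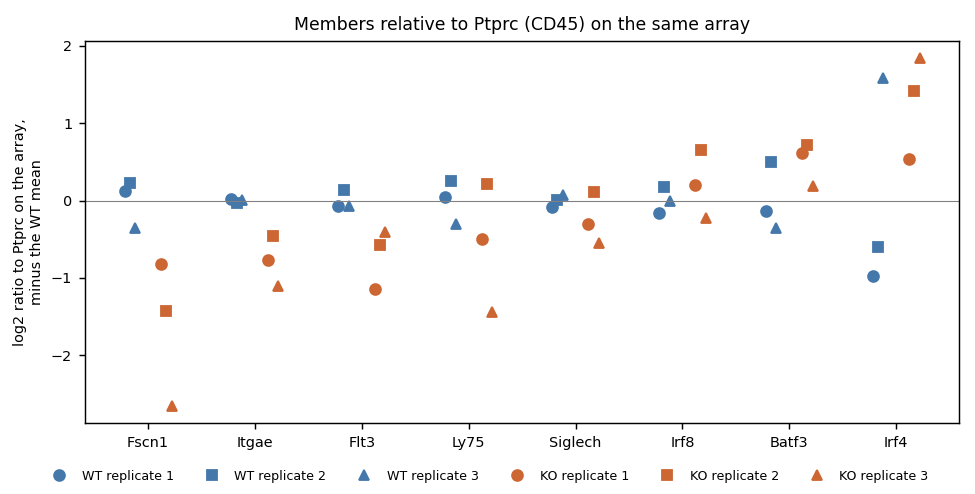
log2 ratio of each tested gene to Ptprc on the same array, minus the WT mean of that ratio, for 3 WT and 3 KO arrays. Fscn1, Itgae and Flt3 lie lower on each KO array than on any WT array, and the other 5 genes overlap.

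Differences between members in their change were compared as ratios within an array for 3 pairs. Batf3 over Cd209a had a log2 ratio of 0.92 ± 0.17 in WT and 1.96 ± 0.46 in KO (SD, n = 3), without overlap, but Cd209a was Absent on 4 of 6 arrays. Irf8 over Irf4 differed by -1.06, with overlapping groups. Fscn1 over Zbtb46 differed by -1.18 and overlapped too, but Zbtb46 was Present on 1 of 6 arrays, so that ratio is mostly to a signal not called detected. The exact permutation p was 0.1, 0.3 and 0.3, and 0.3 for each after adjustment over the 3 pairs.

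The other genes of these lineages, from lists, gave counts to set beside the members. Of 8 cDC1 partner genes 6 were tested and all 6 were higher in KO, 0 past limma's adjusted threshold and 3 at an unadjusted p under 0.05, with a median log2 difference of 0.73 (0.60 without KO replicate 3). Over all tested genes, 42.1% were higher, 20.7% reached that p (8.88% higher and 11.8% lower) and 0.0352% were called. Naaa, an acid amidase, had a WT mean of 1829 ± 120 and a KO mean of 3376 ± 326, and Cadm1, an adhesion molecule of cDC1, 1241 ± 31.0 and 2202 ± 216 (SD, n = 3; limma adjusted p = 0.145 and 0.147). Id2, a repressor of E proteins needed for cDC1, had a log2 difference of 1.28, which was 0.79 without KO replicate 3. Tlr3, the double-stranded RNA sensor, had 0.04. Naaa, Cadm1 and Id2 are also expressed outside dendritic cells.

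Of the cDC2 and monocyte-derived partners 4 of 6 were tested, 4 higher with 1 at an unadjusted p under 0.05 and 0 called by limma, with a median of 0.35. Sirpa, the CD47 receptor, led with 0.92. Without KO replicate 3 the median was 0.01, and Klf4, a zinc finger factor, went from 0.56 to 0.02. The third by p was Clec10a, a galactose-binding lectin, with 0.14, and -0.07 without KO replicate 3, which left 3 higher and 1 lower. Plasmacytoid partners had 6 higher and 4 lower among 10 tested and 0 called by limma, but 9 higher and 1 lower without KO replicate 3. Spib and Ly6d were among those that changed sign, with SEs of 1.26 and 1.53 over all arrays. Both were highest on WT replicate 3 and KO replicate 2, where the B cell markers were high too. Spib read 1903 and 612.1 there and 81.6 to 128.5 elsewhere, and Ly6d 5174 and 1305 against 106.1 to 192.7. Tcf4, the E protein that directs the plasmacytoid lineage and is also expressed in stroma, had -0.89. Pacsin1, a membrane-shaping protein, had 1.29 and Tlr7, an RNA sensor, 0.40.

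Most tested genes of the maturation list lay higher. Of 12 tested 11 were higher, with 5 reaching an unadjusted p under 0.05 and 0 called by limma, with a median of 0.70 that was 0.41 without KO replicate 3. Cd86, a costimulatory ligand, had a WT mean of 779 ± 68.1 and a KO mean of 2657 ± 1572, and Il15, a cytokine presented to CD8 T and NK cells, 757 ± 119 and 2620 ± 1683 (SD, n = 3; limma adjusted p = 0.148 and 0.159). Cd83, a maturation marker, had a log2 difference of 1.87, and 1.12 without KO replicate 3. Ccr7, which guides mature cells to lymph nodes, had 0.46 with overlapping groups, and Ccl22, a chemokine they secrete, -0.06. Ccl17 and Il4i1 were Present on 0 arrays and the brightest set of Il12b on 1, so these genes were not tested. Bulk RNA does not tell which cells made the transcripts of this list. Fscn1, a marker of the same state, thus had the opposite sign to most of this list.

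In the list of growth factors, attractants and their receptors, 7 of 7 tested genes were higher, all of them receptors or chemokines. Of these, 5 reached an unadjusted p under 0.05 and 0 were called by limma, with a median of 1.02 (0.80 without KO replicate 3). The receptor chains for GM-CSF were among them, as Csf2rb2, Csf2rb and Csf2ra had log2 differences of 1.43, 1.02 and 0.89. Csf2, the cytokine itself, was not tested. It was Present on 0 WT arrays and on 1 KO array, at 39.1 ± 41.0 in WT and 120.0 ± 113 in KO (SD, n = 3). Ccl5 and Ccl4, attractants of dendritic cell precursors and T cells, had 1.34 and 2.40, the latter 1.61 without KO replicate 3. Xcl1, the ligand of Xcr1, had 0.27. Xcl1 was at -0.0062 without KO replicate 3, and the list then had 6 higher and 1 lower. Flt3l had no probe set with that symbol alone.

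Relatives of the lineage factors also lay higher, 7 of 8 tested with 4 at an unadjusted p under 0.05, 0 called by limma and a median of 0.49. They were 6 higher and 2 lower without KO replicate 3, with a median of 0.41. Irf1, an interferon-induced factor, had 1.51, Irf5, a factor of inflammatory macrophages, 0.62, and Batf, which can pair with Irf4 and Irf8, 0.47. Batf2, another such partner, was Present on 0 WT and 3 KO arrays, at least 2.25-fold higher in KO (limma adjusted p = 0.176). It passed the detection filter through KO arrays alone, so its place among the higher genes of these counts is no support. In the wider regulator list 12 of 13 were higher, 4 at an unadjusted p under 0.05, 0 called by limma and with a median of 0.54 (11 higher, 2 lower and a median of 0.36 without KO replicate 3), led by Junb (0.88), Etv6 (0.55) and Nr4a3 (1.58, and 0.79 without KO replicate 3). Itgax had a WT mean of 1220 ± 127 and a KO mean of 3300 ± 155 (SD, n = 3; log2 difference 1.44, limma adjusted p = 0.107). It is also carried by macrophages and activated lymphocytes. All 6 pan dendritic and leukocyte genes were higher, with 4 reaching an unadjusted p under 0.05 and 0 called by limma, with a median of 0.93 (0.84 without KO replicate 3).

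**Figure D5:**
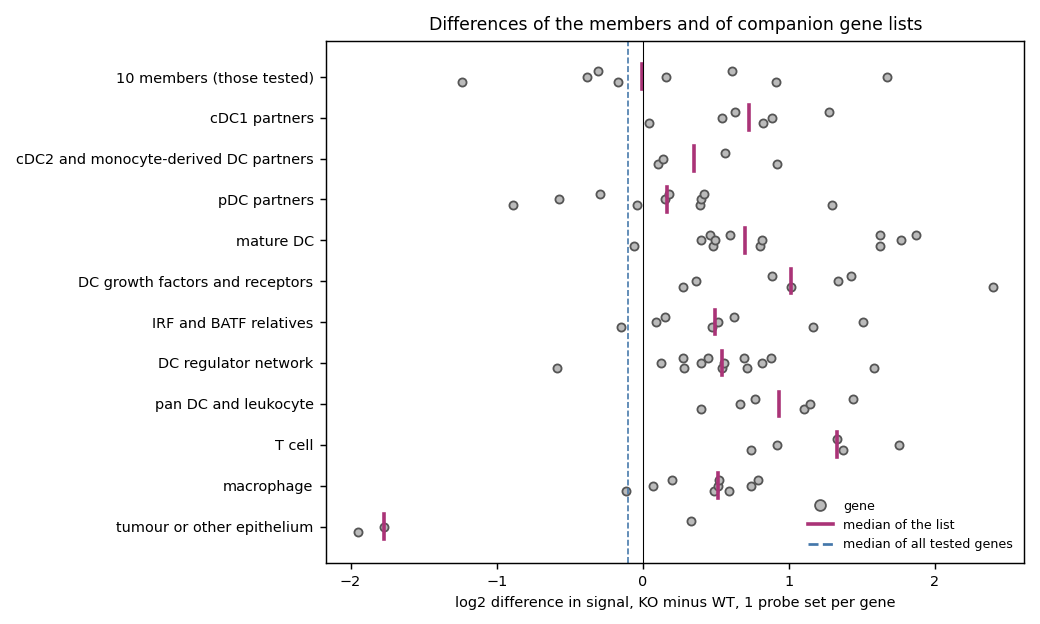
log2 difference in signal, KO minus WT, of the tested genes in each list (grey points, 1 probe set per gene), with the median of the list (short bars) and the median of all tested genes at -0.10 (dashed line). The 8 tested lineage genes centre near 0 with points on both sides. The cDC1, maturation, growth factor and receptor, IRF and BATF, regulator, pan-leukocyte, T cell and macrophage lists lie mostly to the right. In the epithelial list, 2 keratins lie far to the left.

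The genes whose profile was most like that of Batf3 across the 6 arrays, among all tested single-gene probe sets, were Ergic2, D630039A03Rik and Haghl (Pearson r = 0.996, 0.991 and 0.988). For Flt3 they were Foxp3, whose signal was near that of Absent probe sets, Slc26a2 and Ap4e1 (Pearson r = 0.988, 0.975 and 0.972). Over 6 arrays such values describe a shared order only, since 72 probe sets exceeded r = 0.95 with Batf3 and 11 with Flt3. For Zbtb46, which passed no detection filter, none is given.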

How the data were processed

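The deposited array files hold linear signal intensities with detection calls for 45101 probe sets. By the report that the authors deposited with 1 array, the array software's Statistical algorithm made the signals and scaled them. The mean after trimming 2% at each end was 500 on every array. All 270606 cells of the deposited value table matched them within 0.05. The signed folds of the authors' deposited table were taken as a score. By the platform annotation, 34958 probe sets had a single symbol, 932 several and 9211 none, and symbols were checked by Entrez ID against GRCm38.p6 (34754 matched, 0 changed).

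The log2 of the signals as deposited was tested with limma 3.58.1 in R 4.3.3, with no covariates or pseudocount, over the 22063 probe sets (64 controls left out) Present on at least 3 of 6 arrays. The fit was tested on simulated data. Benjamini-Hochberg adjustment ran over all of them, and tests were two-sided. Exact permutation tests compared single values. A gene's value is its tested probe set with the highest mean. A fold against a group in which the probe set was Present on 0 arrays is written "at least", against the higher of its own and the array's lowest Present signal. The labels do not say that samples were separate mice, so p-values cover only the spread among the 6 samples, which may be technical, and the number of arrays limits the precision. Same-numbered WT and KO arrays did not deviate together (r = 0.16, 0.03 and -0.10), so they were not paired.

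The 10 genes and the gene lists were chosen with earlier results of these data known. From each list, called genes or else the 3 of smallest p are named, and Itgax, Ptprc, Csf2, Xcr1, Flt3l and Clec9a always. Others (H2-Ab1, H2-Eb1, Cd207, Tlr3, Ccr7, Ccl22, Ccl17, Il4i1, Il12b, Itgb7, Foxp3, Cdh1, Krt19, Epcam, Xcl1, Batf, Csf2ra, Ccl4, Adgre1, Spib, Ly6d, Mzb1, Xbp1) were named after their values were seen. Alternatives were other scalings, filters, an added offset, the replicate block, limma settings, probe set averaging and leaving out each array. Division by the 5' control of β-actin was chosen after seeing the data. The result for 1 further promoter motif is not reported here.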

Additional observations from a re-analysis of the deposited data

How the results depend on the processing

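limma called 6 probe sets over the whole array, and 5 with cyclic loess and 6 with the value table. It called 1 with scaling to the 75th percentile, and 0 with quantile normalization, no detection filter, Present calls on all 6 arrays or the replicate number as a block. The count was 24 with 50 added before log2, 27 with trend and robust settings, 19 with array weights, 14 with probe sets averaged per gene and 1135 with signals divided by the 5' control of β-actin. Leaving out single arrays gave 0 to 2. Among 190 values of the 11 lineage probe sets under these alternatives, 177 kept their direction and their side of the threshold. The exception past the threshold was Fscn1 at -1.89 under that division (adjusted p = 0.0183). That division turned the brighter Irf8 set to -0.040 and Siglech to -0.50. The dimmer Irf8 set, at -0.01, turned to 0.069 with 75th percentile scaling, 0.054 with quantile normalization, 0.061 with cyclic loess and 0.11 with array weights, and ranged from -0.22 to 0.11 when single arrays were left out. Ly75 turned to 0.037 with array weights, with a range of -0.44 to 0.17 when single arrays were left out, and Siglech ranged from -0.017 to 0.28. The ratio of Irf8 to Ptprc ranged from -0.011 to 0.43. With no filter, genes higher in KO numbered 3 among Cd209 paralogs and 1 in the Langerhans list, where 0 were tested before. Without KO replicate 3 they numbered 1 in the NK list and 2 in the B cell list. The replicate block changed no call of a lineage gene. The cause of these movements was not tested. Signals of Zbtb46, Cd209a, Siglech and Xcr1 lay near the detection limit, where a difference could be missed.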

Other observations

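Lists of other cells of the stroma give the setting of these signals, all with 0 genes past limma's adjusted threshold. T cell genes were higher in 5 of 5 tested, 4 at an unadjusted p under 0.05, led by Cd3g, Cd3e and Cd28 (log2 differences 1.33, 1.76 and 1.37). Among macrophage genes Cd68, C1qa and C1qb had 0.74, 0.52 and 0.52, while Adgre1 (F4/80) had 0.07. Neutrophil genes were higher in 4 of 4 tested, 2 at an unadjusted p under 0.05, with Csf3r and S100a9 at 1.42 and 0.45. Cxcr2, Present on 0 WT arrays, was at least 1.82-fold higher on mean log2 signal, but its groups overlapped (limma adjusted p = 0.246). Cxcr2 also passed the detection filter through KO arrays alone, so its place in that count is no support. NK genes had 2 higher and 2 lower, with Klrk1, Gzma and Ncr1 at 1.32, 0.20 and -0.28. Without KO replicate 3 these NK genes were at 1.00, -0.17 and -0.77, and the list had 1 higher and 3 lower. The 2 tested monocyte genes, Chil3 and Ccr2, had -0.11 and -0.04.

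B cell genes had 1 higher and 2 lower of 3 tested, with Cd79a, Cd79b and Ms4a1 at -0.55, 0.18 and -0.17. There were 2 higher and 1 lower without KO replicate 3, with Ms4a1 at 0.27. Plasma cell genes were higher in 5 of 5, with 2 at an unadjusted p under 0.05. Prdm1, Sdc1 and Jchain were at 1.65, 0.68 and 0.41, and Mzb1 and Xbp1 at 0.06 and 0.04. The Jchain difference carried an SE of 2.20, and its mean signal was lower in KO (1429, against 2852 in WT). Without KO replicate 3 the list was higher in 4 of 5, with Prdm1 at 1.07. Of fibroblast genes 3 were higher and 3 lower, with Col1a1 at 1.70 and Pdgfra and Dcn at -1.13 and -1.08. Endothelial genes were higher in 3 of 3 tested, with Cdh5 and Tek at 0.74 and 0.20. Pecam1, Present on 0 WT arrays, was at least 3.69-fold higher on mean log2 signal. It passed the detection filter through KO arrays alone, so its place in that count is no support. The endothelial genes were 2 higher and 1 lower without KO replicate 3, with Tek at -0.14.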
